A study of Caenorhabditis elegans with 54 samples.

Results

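The 10 genes described here encode the large heat shock proteins of *Caenorhabditis elegans*, a J-domain and a scaffold co-chaperone, and the transcription factor of the heat shock response. They were taken by symbol from a table of 19909 genes, and every one of them was present in it: hsp-1, hsp-70, hsp-110, sti-1 and dnj-13 of the cytosol, hsp-3 and hsp-4 of the endoplasmic reticulum, hsp-6 and hsp-60 of the mitochondrion, and hsf-1. The RNA came from whole worms that all carried the daf-2 mutation, a lesion of the insulin-like receptor gene that drives larvae into dauer, the stress-resistant diapause stage. Each of the 54 libraries was made from a pool of 8000 worms, and each of 18 conditions had 3 biological replicates. Dauers were collected at 0, 6 and 24 h after exit was induced on dauer day 1, 4, 15 or 30 (D1, D4, D15 and D30), in 12 conditions without UV. A further 5 conditions were irradiated with UV on dauer day 1 and collected on D1 at 6 and 24 h and on D4 at 0, 6 and 24 h, and the dose is not given in the labels. The last condition was L3 larvae, the stage reached at the same molt without dauer. By the study's methods dauers were held at the warmer temperature that induces the arrest, whereas exit was started with fresh food and a shift to the cooler temperature at which the strain develops without dauer. Stage, food and temperature therefore cannot be told apart in any comparison of dauers with later times or with L3 larvae. In addition, 1 strain carrying 1 daf-2 lesion was used throughout, so its part in any value cannot be told apart from that of the stage.

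Hsp70 proteins hold unfolded stretches of other proteins in cycles driven by ATP. J-domain proteins such as DNJ-13 bring them clients and speed ATP hydrolysis, Hsp110 exchanges their nucleotide, and Hop, encoded by sti-1, is a co-chaperone that binds Hsp90. The endoplasmic reticulum and the mitochondrion have Hsp70 proteins of their own, and Hsp60 forms the folding chamber of the mitochondrial matrix. HSF-1 switches on cytosolic chaperone genes under heat and is needed in *C. elegans* for normal development and lifespan. Transcription of hsp-4 answers to the unfolded protein response of the endoplasmic reticulum, and hsp-6 and hsp-60 are the usual reporter genes of the mitochondrial one.

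The genes are protein coding and lie on 6 chromosomes of WBcel235 (Ensembl release 115). Of the cytosolic members, hsp-1, the constitutive Hsp70, is on chromosome IV from 17278959 to 17281330, hsp-70, an inducible Hsp70, on chromosome I from 9320325 to 9322519, hsp-110 on chromosome III from 8443910 to 8446909, sti-1 on chromosome V from 773518 to 774775 and dnj-13 on chromosome II from 11545701 to 11547360. The BiP genes hsp-3 and hsp-4 are on chromosome X from 6089028 to 6092124 and on chromosome II from 7350112 to 7352645. The mitochondrial hsp-6 is on chromosome V from 4824124 to 4826760, hsp-60 on chromosome III from 1619742 to 1625803, and hsf-1 on chromosome I from 11953507 to 11963085. No member shared exonic bases with another annotated gene, although the bounds of hsp-1 hold a snoRNA gene and those of hsp-70 and dnj-13 overlap a gene of the other strand.

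Libraries held 670302 to 12952656 estimated counts (median 8457220), with the D4 dauers after UV the shallowest at 670302 to 856794. The 18 D4 libraries as a whole were shallow, at up to 5978390 counts (median 2707599). The other 36 held 5455652 or more (median 9337012). Depth thus moved with day in every comparison of D4 with another day or with L3 larvae, and its part there was not tested. Levels are given as normalised read counts, CPM on TMM-scaled library sizes, and the mean ± SD is over 3 libraries. All 10 genes passed the filter on low counts in every comparison, so none is left out of any count below. The markers of the dauer stage differed widely among the dauer days. The summed level of 6 dauer markers was 25350.0 to 26440.0 CPM in D1 dauers and 50.2 to 58.6 CPM in L3 larvae, but 769.9 to 826 CPM in D4 dauers, 981 to 1029 CPM in D15 dauers and 714 to 776 CPM in D30 dauers. The dauer collagens col-2 and col-40 carried most of it on D1 and were near 0 from D15 on, while hsp-12.6 lay between 330.5 and 934 CPM in the dauer libraries of the 4 days. The sum does not stand for every marker. With D1 dauers set against L3 larvae, 5 of the 6 dauer markers passed edgeR's test upward and 1 downward (log2 change -3.21). The 6 larval growth and molting markers summed to 2121 to 2446 CPM at 24 h after exit from D4, 2658 to 2790.0 CPM at that time after UV and 4926 to 5426 CPM in L3 larvae, and to at most 182.5 CPM in any library of the other conditions.

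The L3 libraries were the least alike of any group. The chi-square of their counts over genes, per degree of freedom, was 23.38 and 29.45 between L3 replicate 3 and the other two and 1.99 between those, and at most 7.23 for any pair of replicates in the other 17 conditions. L3 replicate 3 had 1022 CPM of hsp-6, against 778 and 815 CPM in the other two, and 334 CPM of hsp-4, against 420.2 and 483 CPM. Every comparison with L3 larvae rests on it, and 2 of the calls given below changed when it was left out, those of hsp-4 and hsp-110 at 24 h after exit from D30.

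A pair of D30 libraries stood apart within their groups for several members. D30 at 6 h replicate 3 had 485 CPM of hsp-70, 822 of hsp-110 and 359.9 of hsp-4, each the highest of its group, and D30 at 24 h replicate 2 had 561, 926 and 362 CPM. F44E5.4, a stress-inducible Hsp70 gene with a near-identical neighbour, moved with them, at 4976, 3669.6 and 8182 CPM in the D30 6 h libraries and 4076, 7777 and 5246 CPM in the D30 24 h libraries. The Hsp90 gene daf-21 did not, at 24591, 25565 and 26143 CPM at 6 h and 15738, 16619 and 18670.0 CPM at 24 h. Their part in the D30 results was not tested beyond leaving each out, which is given beside those results.

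**Figure D1:**
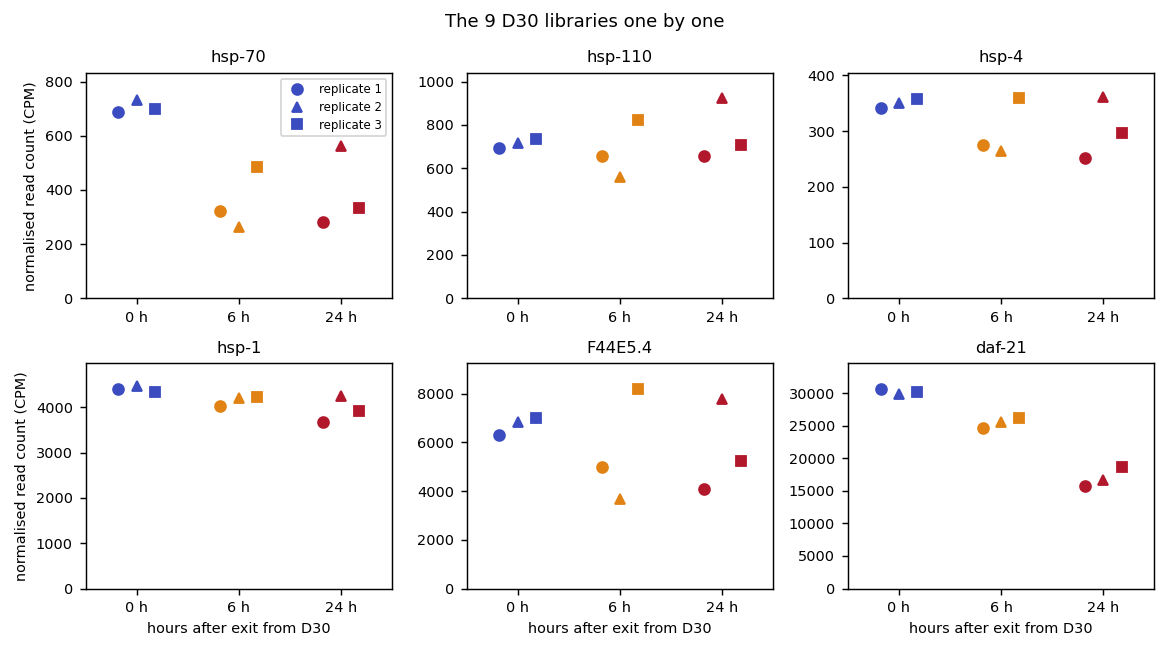
Normalised read counts (CPM, vertical axis from 0) of 4 members, F44E5.4 and daf-21 in each of the 9 D30 libraries, by hours after exit, with 1 symbol for each replicate number. Replicate 3 at 6 h and replicate 2 at 24 h were the highest of their groups for hsp-70, hsp-110, hsp-4 and F44E5.4, whereas the highest daf-21 level at both times was in replicate 3.

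D1 dauers were first compared with L3 larvae to ask how the chaperone genes stand in diapause and in continuous development. 8 of the 10 members were lower in D1 dauers and 2 were higher, where 36.9% of the 13419 genes tested were lower and 38.7% higher. The median log2 change of the members was -1.43, against 0.04 for all genes tested. The deepest fall was that of hsp-60, with 137, 121 and 138 CPM in D1 dauers and 919, 953 and 1078 CPM in L3 larvae (log2 change -2.87, standard error 0.079, edgeR adjusted p = 5.26e-08). Adjusted p-values come from the quasi-likelihood test of edgeR, adjusted by Benjamini and Hochberg's method over all genes tested, here and below. Its mitochondrial partner hsp-6 had 239, 209 and 236 CPM in D1 dauers and 778, 815 and 1022 CPM in L3 larvae (log2 change -1.91, standard error 0.11, edgeR adjusted p = 1.45e-06). For both genes every dauer library lay far below every larval one. RNA of whole worms cannot tell fewer cells of a type from less RNA per cell, here or below.

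Among the cytosolic genes, hsp-1 had 1039.7, 922 and 1050.2 CPM in D1 dauers and 3586, 3836 and 3527 CPM in L3 larvae (log2 change -1.84, standard error 0.061, edgeR adjusted p = 1.04e-07). Its cofactor genes dnj-13, hsp-110 and sti-1 fell with it, by 1.59, 1.42 and 1.20 on the log2 scale. Both BiP genes fell too, hsp-3 to 899 ± 31.7 CPM in D1 dauers, against 2427 ± 256 CPM in L3 larvae, and hsp-4 to 149 ± 6.45 CPM, against 412 ± 75 CPM. The inducible Hsp70 gene went the other way. D1 dauers had 164, 142 and 157 CPM of hsp-70 and L3 larvae 62.8, 55.8 and 41.3 CPM, the lowest level of this gene in the 18 conditions (log2 change 1.56, standard error 0.15, edgeR adjusted p = 2.8e-05). The heat shock factor hsf-1 was slightly higher in D1 dauers, at 43.6, 41.1 and 49.1 CPM against 34.1, 37.9 and 33.8 CPM in L3 larvae (log2 change 0.37, standard error 0.089, edgeR adjusted p = 0.0058), and the 2 groups did not overlap. All 10 calls of D1 dauers against L3 larvae were kept without L3 replicate 3, where hsp-6 was at -1.81 and hsp-4 at -1.61.

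Other folding genes were counted from the lists beside them. Of the 14 genes of the cytosolic chaperonin TRiC and of prefoldin, which hands it nascent actin and tubulin, 14 were lower in D1 dauers and 0 higher (median log2 change -1.44). Of 15 genes of the Hsp90 machine and Hsp70 partners, 11 were lower and 1 higher (median -0.70), although that list also holds stip-1, which shares its short name with Hop but encodes a homologue of a splicing factor and did not pass here (log2 change 0.11). Of 19 genes of endoplasmic reticulum folding 16 were lower and 1 higher (median -0.70), and of 15 genes of mitochondrial folding and proteolysis 11 were lower and 2 higher (median -1.36). The inducible heat shock genes, of which 6 were tested, had 4 lower and 1 higher (median -1.28), and the hsp-16 genes and the pair F44E5.4 and F44E5.5 among them are uncertain one by one because near-identical copies share reads. Of the 3 genes for HSF-1 regulators, 0 were lower and 0 higher.

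**Figure D2:**
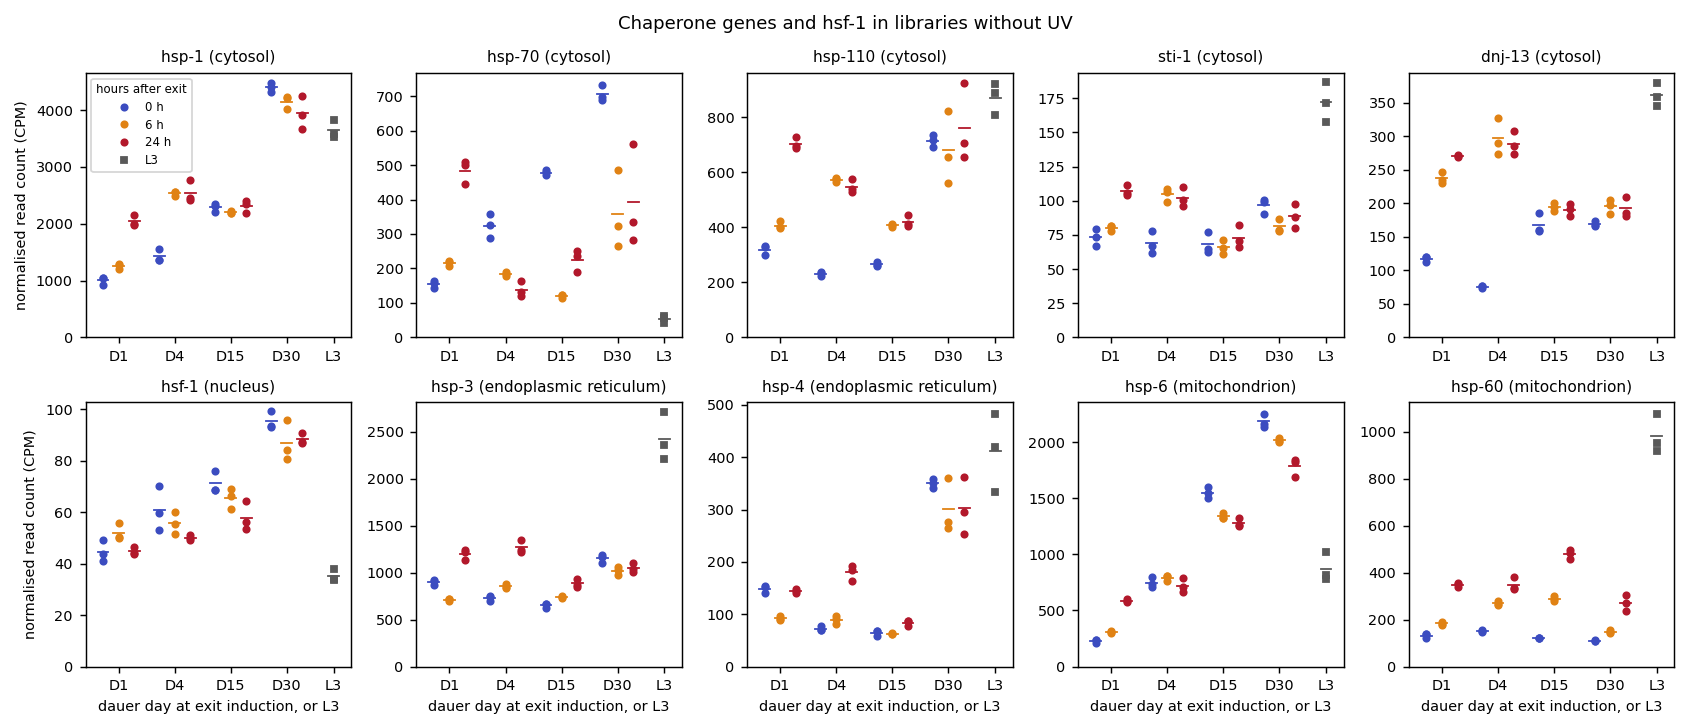
Normalised read counts (CPM, vertical axes from 0) of the 10 members in the 39 libraries without UV, by dauer day at which exit was induced and hours after exit, with L3 larvae at the right. Points are libraries and bars are means of 3, and the panels show hsp-6 climbing with dauer day while hsp-60 at 0 h lies between 107 and 155 CPM in every library.

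Dauers of D1, D4, D15 and D30 before exit were compared to ask how the members change with time in diapause, as the slope on dauer day, expressed as the fitted log2 change over the 29 days. 8 of 10 members rose and 1 fell, 9 calls in all, where 24.9% of all genes tested rose and 31.8% fell. The median log2 change was 1.17 over the members and -0.09 over all genes tested. With the slope taken on log2 of the day, 6 members passed, and the calls of sti-1 (log2 change 0.34, edgeR adjusted p = 0.0931), hsp-4 (1.03, edgeR adjusted p = 0.153) and hsp-60 (-0.25, edgeR adjusted p = 0.14) were lost. The share of all genes tested in that fit is not given here. Step by step, D4 dauers had 5 members higher and 4 lower than D1 dauers (35.1% and 36.1% of all genes tested), and D15 dauers had 4 higher and 3 lower than D4 dauers (32.8% and 34.7%). D30 dauers had 8 members higher and 0 lower than D15 dauers, against 32% higher and 32% lower of all genes tested. Between D4 and D15 the shares of the members were thus close to those of all genes, and the last step was the one with a single direction. The D4 dauers also held transcripts of another stage. The 6 yolk genes, which adults express, summed to 0 to 0.548 CPM in D1 dauers, with 4 of the 6 at 0 in every library, 507 to 2003 CPM in D4 dauers and 12.2 to 17.4 CPM in D15 dauers, and all 6 were higher in D4 than in D1 dauers and lower in D15 than in D4 dauers. The 10 sperm markers summed to 2.10 to 3.92 CPM on D1, 9.75 to 29.3 CPM on D4 and 2.33 to 3.37 CPM on D15. Their part in the changes of the members into and out of D4 was not tested.

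The constitutive Hsp70 gene hsp-1 rose at each step. It had 1039.7, 922 and 1050.2 CPM on D1, 1559, 1365 and 1355 on D4, 2341, 2205 and 2320.3 on D15 and 4403, 4473 and 4324 on D30 (log2 change 2.04, standard error 0.17, edgeR adjusted p = 1.22e-06), and no library of 1 day reached into the next. The D30 level, 4400.2 ± 74.4 CPM, was the highest of hsp-1 in any condition, L3 larvae included. The inducible hsp-70 climbed as steadily, with 164, 142 and 157 CPM on D1, 327, 357 and 289 on D4, 479, 486 and 470.5 on D15 and 689, 732 and 698 on D30 (log2 change 1.82, standard error 0.29, edgeR adjusted p = 0.000214). In CPM per kilobase of transcript, hsp-1 stood at 6.44 ± 0.176 times hsp-70 on D1, 4.39 ± 0.515 on D4, 4.75 ± 0.212 on D15 and 6.18 ± 0.141 on D30, and at 69.9 ± 14.1 times in L3 larvae.

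The cofactor genes did not follow a single course. hsp-110 had 331, 299 and 328 CPM on D1, 237, 233 and 223 on D4, 273, 264 and 261 on D15 and 691, 718 and 736 on D30. It thus fell on D4, in the dauers with yolk transcripts (log2 change -0.40, edgeR adjusted p = 8.61e-06) and rose on D30 over D15 (1.48, edgeR adjusted p = 6.43e-19), and the slope over all days was 1.36. dnj-13 fell on D4 as well, to 75.4 ± 2.06 CPM against 117 ± 4.38 CPM on D1, but recovered a step earlier, to 168 ± 15.0 CPM on D15, and had 169 ± 4.18 CPM on D30 (D30 against D15, log2 change 0.07, standard error 0.055, edgeR adjusted p = 0.268). The Hop gene sti-1 lay between 62.04 and 79.3 CPM in the libraries of D1, D4 and D15 and reached 99.2, 100.4 and 89.97 CPM on D30 (D30 against D15, log2 change 0.55, standard error 0.069, edgeR adjusted p = 2.05e-07). Without D30 the slopes of hsp-110 and sti-1 were below 0, at -0.32 and -0.22 per 29 days, and neither passed the test.

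In the endoplasmic reticulum, hsp-4 sank until D15 and then rose the most of all members in a single step. D1 dauers had 141, 152.1 and 153 CPM, D4 dauers 77.8, 69.2 and 70.7, D15 dauers 67.1, 67.2 and 57.5 and D30 dauers 342, 351 and 358. The fall between D4 and D15 (log2 change -0.27, edgeR adjusted p = 0.00684) was lost without D15 replicate 3 (-0.17, edgeR adjusted p = 0.0602) and in a fit of all 54 libraries (edgeR adjusted p = 0.0895). The step of D30 over D15 was 2.51 on the log2 scale (standard error 0.056, edgeR adjusted p = 5.71e-21). hsp-3, the more abundant BiP gene per kilobase, dipped less, with 909, 864 and 925 CPM on D1, 751, 739.9 and 695 on D4, 665, 622 and 669 on D15 and 1189.8, 1106 and 1167 on D30. Its slope missed the threshold (log2 change 0.48, standard error 0.21, edgeR adjusted p = 0.0657), although D30 dauers were higher than D15 dauers (log2 change 0.88, edgeR adjusted p = 4.8e-15). The slope passed without any 1 of the D15 libraries (edgeR adjusted p = 0.0383 to 0.0478) and without D1 (edgeR adjusted p = 0.0144). It also passed in a fit of all 54 libraries (edgeR adjusted p = 3.13e-11), and a test with day as a category was passed (edgeR adjusted p = 1.96e-14). Per kilobase, hsp-3 stood 8.60 ± 1.03 times as high as hsp-4 on D15 and 2.76 ± 0.141 times on D30. With D30 left out, the slopes turned to -2.11 for hsp-4 (edgeR adjusted p = 0.0087) and -0.86 for hsp-3 (edgeR adjusted p = 0.0121). Both genes thus declined until D15, and only the D30 libraries of either stood above those of D1.

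The mitochondrial pair parted. hsp-6 had 239, 209 and 236 CPM on D1, 800.0, 735 and 712 on D4, 1549.5, 1505 and 1598 on D15 and 2254, 2139.8 and 2168 on D30, the largest slope of the 10 genes (log2 change 2.61, standard error 0.49, edgeR adjusted p = 0.000768). hsp-60 had 137, 121 and 138 CPM on D1, 155, 152.3 and 146 on D4, 124, 123 and 123 on D15 and 107, 111 and 114 on D30, and its slope was slightly downward (log2 change -0.33, standard error 0.12, edgeR adjusted p = 0.034). That call of hsp-60 was close to the threshold. It was lost when any 1 of the D4, D15 or D30 libraries was left out, with edgeR adjusted p-values of up to 0.12. In CPM per kilobase, hsp-6 stood at 1.49 ± 0.0163 times hsp-60 on D1, 4.28 ± 0.155 on D4, 10.9 ± 0.367 on D15 and 17.1 ± 0.974 on D30, and at 0.762 ± 0.0487 in L3 larvae. The order of the 2 genes was therefore the reverse in L3 larvae of that in dauers.

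**Figure D3:**
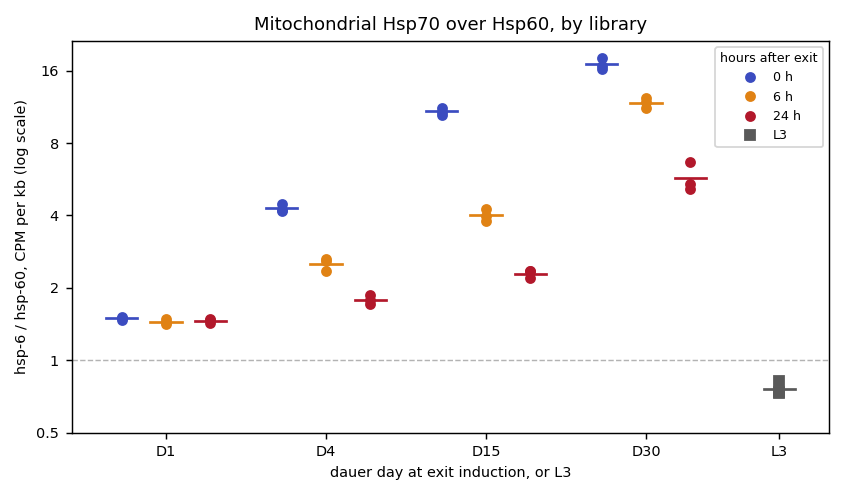
Ratio of hsp-6 to hsp-60 in CPM per kilobase of the longest annotated transcript (log2-spaced axis) in the 39 libraries without UV, by dauer day and hours after exit, with L3 larvae at the right. Points are libraries and bars are means of 3, the dashed line marks equal levels, and the ratio at 0 h goes up from 1.49 on D1 to 17.1 on D30 while L3 larvae lie below 1.

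hsf-1, the least abundant member per kilobase, rose over dauer days, with 43.6, 41.1 and 49.1 CPM on D1, 70.05, 53.0 and 59.5 on D4, 76.2, 68.8 and 68.6 on D15 and 93.4, 99.4 and 93.1 on D30 (log2 change 0.97, standard error 0.15, edgeR adjusted p = 0.000202). Its D15 libraries overlapped those of D4, and the test between them was not passed (log2 change 0.14, edgeR adjusted p = 0.177). Of the genes for HSF-1 regulators, ddl-1, which encodes a protein that binds HSF-1 as an inhibitor in *C. elegans*, rose (log2 change 1.23), and hsb-1 and ddl-2 did not pass, at -0.19 and -0.79.

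In the lists, 12 of 14 TRiC and prefoldin genes rose over dauer days and 0 fell (median log2 change 1.80), and 10 of 15 genes of the Hsp90 machine and Hsp70 partners rose and 0 fell (median 1.06), stip-1 among the 10. The Hsp90 gene daf-21 was among them, with a mean of 2843 CPM on D1, 12628 on D4, 25013 on D15 and 30238 on D30. Of the 19 genes of endoplasmic reticulum folding, 8 rose and 2 fell (median 0.23), and xbp-1, the transcription factor gene of the response that drives hsp-4, had a log2 change of 1.47. Mitochondrial folding and proteolysis was mixed, with 6 of 15 rising and 3 falling (median 0.27). All 6 inducible heat shock genes tested rose, and F44E5.4 reached 6313, 6836 and 7021 CPM in the D30 libraries, against a mean of 247 CPM on D15.

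Exit was examined in 2 ways, as the first 6 h against 0 h and as the slope on exit hour over 0, 6 and 24 h, given as the fitted log2 change over 24 h. Both use the same 0 h libraries of a day. At 6 h after exit from D1, 7 members were higher and 2 lower than at 0 h (22.2% and 22% of all genes tested), and from D4 7 were higher and 1 lower (24.4% and 22.5%). From D15, 4 were higher and 2 lower (30% and 28.5%), and from D30, 2 were higher and 4 lower (13.4% and 15%). The higher members thus outnumbered the lower ones from D1 and D4, whereas from D15 the shares of the members were close to those of all genes tested. From D30 the 6 calls depended on single libraries, since 9 passed without D30 6 h replicate 3 and 4 or 5 with any other library left out. The shares of all genes tested in those fits are not given here, so whether they moved likewise was not examined. The slope over 24 h gave 8 higher and 0 lower from D1 (30.56% and 31.4%), 3 and 1 from D4 (22.6% and 21%), 4 and 0 from D15 (22.4% and 19.9%), and 1 and 2 from D30 (24.6% and 22.2%). A course that steps up by 6 h and then stays level is poorly described by such a slope, and 24 h against 0 h alone called 9 members on D4, 8 on D15 and 6 on D30. The shares of all genes tested under that setting are not given here, so these counts were not set against them. The exit values of D4 rest on the 0 h libraries rich in yolk transcripts. The 6 yolk genes summed to 507 to 2003 CPM at 0 h, 0.338 to 153.8 CPM at 6 h and 0.831 to 251.5 CPM at 24 h, with 6 of 6 lower at 6 h than at 0 h (median log2 change -4.62), and their part in the D4 exit values was not tested.

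hsp-60 was the single member with a rising slope from all 4 days. On D1 it had 137, 121 and 138 CPM at 0 h, 192, 178 and 183 at 6 h and 354, 353 and 337 at 24 h (log2 change 1.43, standard error 0.067, edgeR adjusted p = 1.47e-08). On D15 it had 124, 123 and 123 CPM at 0 h, 279, 299.6 and 286 at 6 h and 496, 486 and 459.5 at 24 h (log2 change 1.75, standard error 0.26, edgeR adjusted p = 0.000382), with no overlap between times. The slopes were 1.00 from D4 and 1.26 from D30, and the test of a difference among the 4 days was not passed (edgeR adjusted p = 0.175). hsp-6, in contrast, rose only in the exit from D1 among the 4 slopes, with 239, 209 and 236 CPM at 0 h and 584, 606 and 574 CPM at 24 h (log2 change 1.41, standard error 0.059, edgeR adjusted p = 6.93e-09). From D15 its mean was 1551 CPM at 0 h, 1338 at 6 h and 1277 at 24 h, and every 6 h library lay below every 0 h library. That slope did not pass as reported. It passed downward by DESeq2 (adjusted p = 0.0461), in a fit of all 54 libraries (edgeR adjusted p = 0.00164) and at 24 h against 0 h alone (edgeR adjusted p = 0.000439). From D30 hsp-6 fell, with 2254, 2139.8 and 2168 CPM at 0 h, 2000.3, 2015 and 2042 at 6 h and 1693, 1823 and 1838 at 24 h (log2 change -0.28, standard error 0.038, edgeR adjusted p = 5.68e-05). Its first 6 h from D30 gave a change of -0.10 (edgeR adjusted p = 0.0237), a call that was lost by DESeq2, in a fit of all 54 libraries and without any 1 of 5 of the 6 libraries, with adjusted p-values of 0.0554 to 0.194. The slopes of hsp-6 differed among the days by the interaction test (edgeR adjusted p = 2.33e-17). By 24 h the hsp-6 to hsp-60 ratio per kilobase was 1.46 ± 0.0307 from D1, 1.78 ± 0.0737 from D4, 2.29 ± 0.092 from D15 and 5.75 ± 0.816 from D30.

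The inducible hsp-70 changed direction with dauer day. From D1 it rose, with 164, 142 and 157 CPM at 0 h, 219, 221 and 208 at 6 h and 444, 499 and 509 at 24 h (log2 change 1.69, standard error 0.066, edgeR adjusted p = 4.51e-09). From D15 it fell within 6 h to 123, 122 and 113 CPM, against 479, 486 and 470.5 CPM at 0 h (log2 change -1.99, standard error 0.048, edgeR adjusted p = 4.74e-17). It had partly come back at 24 h, at 251, 235 and 189 CPM, every value between those of 0 h and 6 h. From D4 the level was 324 CPM at 0 h, 184 at 6 h and 138 at 24 h on average (slope log2 change -1.11, standard error 0.2, edgeR adjusted p = 0.00151). From D30 it fell to 324, 265 and 485 CPM at 6 h, against 689, 732 and 698 CPM at 0 h (log2 change -0.96, standard error 0.14, edgeR adjusted p = 8.02e-05). The D30 slope missed the threshold (log2 change -0.65, standard error 0.3, edgeR adjusted p = 0.0936) and passed it with D30 24 h replicate 2 left out (log2 change -1.06, edgeR adjusted p = 0.0133), and also with D30 6 h replicate 2 left out (-0.72, edgeR adjusted p = 0.0251). It passed as well in a fit of all 54 libraries (-0.66, edgeR adjusted p = 0.000163) and at 24 h against 0 h alone (-0.86, edgeR adjusted p = 0.000585).

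The genes dnj-13, hsp-110 and hsp-1 stepped up within 6 h of exit from D1 and D4, dnj-13 and hsp-110 also from D15, and dnj-13 alone of these 3 from D30. On D4, dnj-13 had 290.0, 274 and 327 CPM at 6 h and 76.6, 76.7 and 73.1 CPM at 0 h (log2 change 2.00, standard error 0.076, edgeR adjusted p = 1.32e-09), the largest rise of any member within 6 h. On D1 it had 231, 247 and 235 CPM at 6 h and 119, 112 and 120.3 CPM at 0 h (log2 change 1.03, standard error 0.045, edgeR adjusted p = 6.08e-14). From D15 and D30 its first steps were 0.22 and 0.22, small but past the threshold, and 6 h libraries lay above all 0 h libraries on each of the 4 days. hsp-110 followed it on D4, with 567, 579 and 577 CPM at 6 h and 237, 233 and 223 CPM at 0 h (log2 change 1.34, standard error 0.051, edgeR adjusted p = 1.32e-09). Its first step from D30 was -0.05 and did not pass (edgeR adjusted p = 0.725), but without D30 6 h replicate 3 it was -0.20 and passed (edgeR adjusted p = 0.0016).

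hsp-1 had 2004, 2159 and 1984 CPM at 24 h and 1039.7, 922 and 1050.2 CPM at 0 h on D1 (slope log2 change 1.08, standard error 0.056, edgeR adjusted p = 2.77e-08). On D4 it had 2559.7, 2486 and 2560.4 CPM at 6 h against 1559, 1365 and 1355 CPM at 0 h (log2 change 0.85, standard error 0.049, edgeR adjusted p = 3.8e-08), and its 24 h libraries, at 2768, 2414 and 2458 CPM, overlapped those of 6 h. From D15 it had 2289, 2203 and 2314 CPM at 0, 6 and 24 h, with overlapping libraries, and from D30 it fell slightly (log2 change -0.14, standard error 0.046, edgeR adjusted p = 0.0227), a call that was lost without D30 0 h replicate 2, D30 24 h replicate 1 or D30 24 h replicate 3 (log2 changes -0.12, -0.08 and -0.12, edgeR adjusted p = 0.0732, 0.201 and 0.0768). sti-1 rose from D1 over 24 h (log2 change 0.62) and from D4 within 6 h (0.63). Its first step from D30 was downward, -0.23 (edgeR adjusted p = 0.0129), and that call was lost without replicate 1 or 2 of either time (edgeR adjusted p = 0.0561 to 0.0732).

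Of the endoplasmic reticulum pair, both genes dipped at 6 h after exit from D1 and came back by 24 h. hsp-4 had 141, 152.1 and 153 CPM at 0 h, 89.0, 97.5 and 90.9 at 6 h and 147, 145 and 140.3 at 24 h (6 h against 0 h, log2 change -0.67, standard error 0.053, edgeR adjusted p = 8.8e-10). hsp-3 had 909, 864 and 925 CPM at 0 h, 715, 699 and 719.6 at 6 h and 1246, 1218 and 1132 at 24 h (6 h against 0 h, log2 change -0.32, standard error 0.036, edgeR adjusted p = 1.44e-07), so that its 24 h libraries stood above those of 0 h. From D4 no dip was seen, and hsp-4 rose to 191, 164 and 185 CPM at 24 h, against 77.8, 69.2 and 70.7 CPM at 0 h (slope log2 change 1.31, standard error 0.089, edgeR adjusted p = 1.73e-06). From D15 both rose (slopes 0.50 for hsp-4 and 0.49 for hsp-3). From D30 the slopes were -0.15 for hsp-4 and -0.09 for hsp-3, and neither passed. The hsp-3 slope did pass downward in a fit of all 54 libraries (-0.14, edgeR adjusted p = 0.0284) and at 24 h against 0 h alone (-0.15, edgeR adjusted p = 0.0093). At 6 h from D30, hsp-3 was among the members called lower than at 0 h. It had 976, 1033 and 1058.5 CPM at 6 h and 1189.8, 1106 and 1167 CPM at 0 h. Without D30 6 h replicate 3, hsp-4 was lower at 6 h than at 0 h (log2 change -0.34, edgeR adjusted p = 1.66e-07, against -0.20 and 0.0815 with it). hsf-1 had no slope past the threshold on any day, the largest being -0.27 from D4 (edgeR adjusted p = 0.0652). Its fall from D4 passed in a fit of all 54 libraries, at 24 h against 0 h alone and without D4 0 h replicate 2. The edgeR adjusted p-values were 0.0207, 0.0404 and 0.0349. Its fall from D15 passed by DESeq2 (adjusted p = 0.0388). It also passed in the joint fit, at 24 h against 0 h alone and without D15 24 h replicate 2 (edgeR adjusted p = 0.00484, 0.0119 and 0.041). hsf-1 was higher at 6 h than at 0 h on D1 (log2 change 0.23, edgeR adjusted p = 0.0136). That call was lost without D1 0 h replicate 1 or 2 or D1 6 h replicate 1 and in a fit of all 54 libraries, with edgeR adjusted p-values of 0.0508 to 0.0838.

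The exit slopes of the 4 days were set against each other in 1 model with an interaction of day and hour. 7 of 10 members differed among the days, where 64.2% of all genes tested did, a share close to theirs. They were hsp-1, hsp-70, hsp-110, sti-1, hsp-3, hsp-4 and hsp-6, and the slopes of dnj-13, hsf-1 and hsp-60 did not pass. dnj-13 was near the threshold (edgeR adjusted p = 0.0742) and passed it without any 1 of the D4 6 h libraries (edgeR adjusted p = 0.0177 to 0.0401) and by DESeq2 (adjusted p = 0.0457). In a fit of all 54 libraries both dnj-13 (edgeR adjusted p = 2.47e-18) and hsp-60 (edgeR adjusted p = 1.37e-06) differed among the days. In the lists, TRiC and prefoldin genes had 13 of 14 rising and 0 falling from D1 and 1 rising and 10 falling from D30. The mitochondrial list had 12 of 15 rising and 1 falling from D1, 8 and 1 from D4, 8 and 1 from D15, and 8 and 2 from D30.

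**Figure D4:**
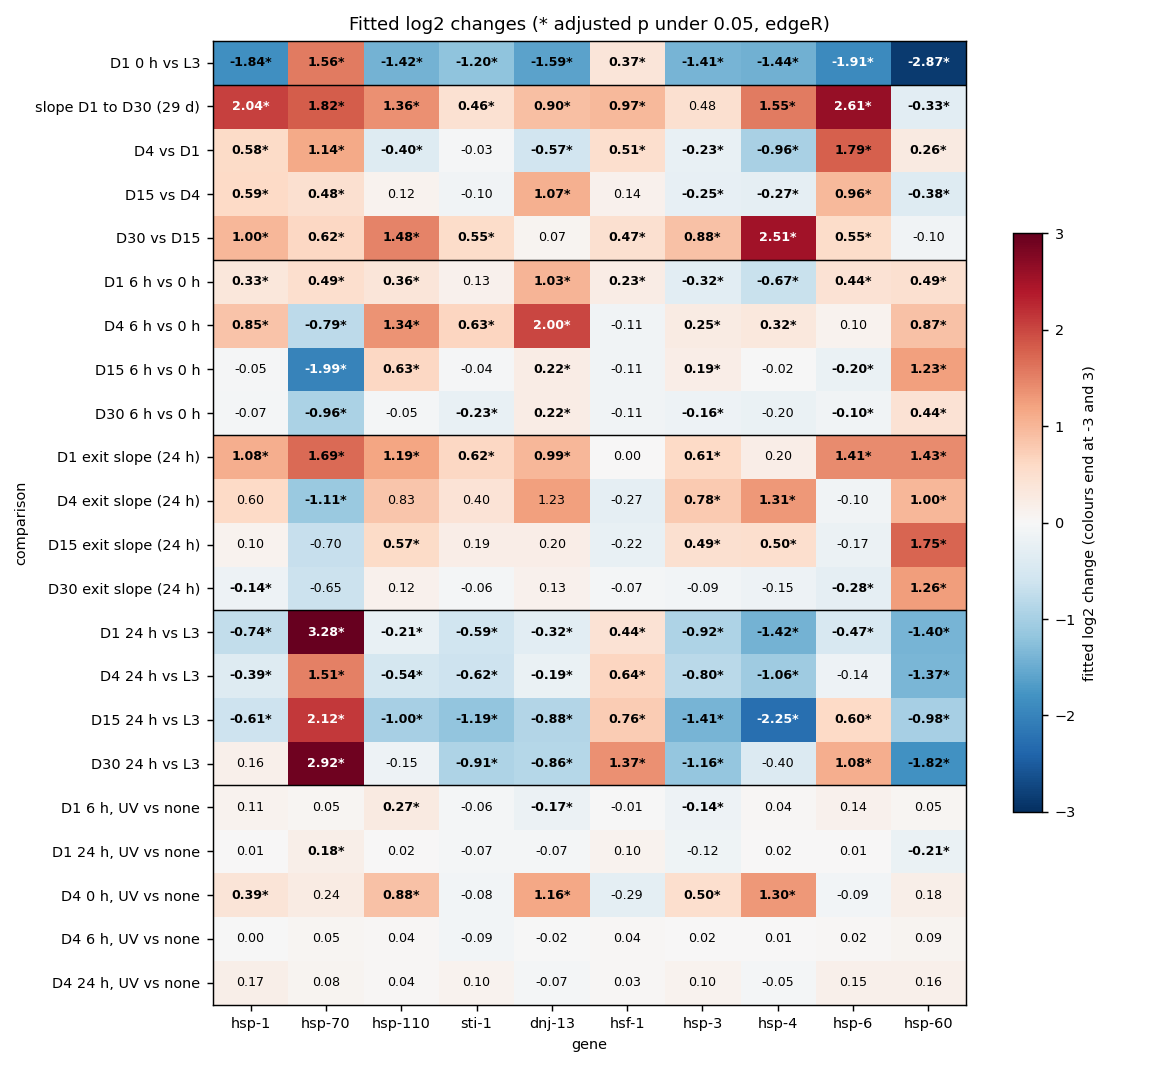
Fitted log2 changes of the 10 members (columns) in 22 comparisons (rows), the first-named group over the second, with red for higher and blue for lower and an asterisk where the edgeR adjusted p was under 0.05. hsp-60 is red in every exit slope, hsp-70 is blue at 6 h from D4, D15 and D30, and the UV rows are pale except D4 at 0 h.

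Larvae at 24 h after exit were set beside L3 larvae to see how far the members had reached the level of continuous development. These 4 comparisons share the L3 libraries. After exit from D1, 2 members were higher and 8 lower than in L3 larvae (34.8% and 34.5% of all genes tested), and the call of hsp-110 (log2 change -0.21, edgeR adjusted p = 0.0157) was lost without any 1 of the D1 24 h libraries (edgeR adjusted p = 0.0598 to 0.0929). After D4 the numbers were 2 and 7 (30% and 30.1%), after D15 3 and 7 (37% and 37.4%), and after D30 3 and 4 (40.2% and 40.1%). hsp-70 and hsf-1 were higher than in L3 larvae after each of the 4 days, and hsp-60, hsp-3, sti-1 and dnj-13 were lower after each.

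hsp-60 had 269.6, 305 and 237 CPM at 24 h after exit from D30 and 919, 953 and 1078 CPM in L3 larvae (log2 change -1.82, standard error 0.1, edgeR adjusted p = 1.77e-06), and its log2 changes after D1, D4 and D15 were -1.40, -1.37 and -0.98. hsp-70 had 444, 499 and 509 CPM at 24 h after exit from D1 and 62.8, 55.8 and 41.3 CPM in L3 larvae (log2 change 3.28, standard error 0.16, edgeR adjusted p = 2.04e-06). D4, whose 24 h larvae were the only ones rich in molting transcripts, had the smallest excess of hsp-70 (log2 change 1.51). hsp-6 passed from below to above the L3 level with dauer day, at -0.47 after D1, -0.14 after D4, which did not pass (edgeR adjusted p = 0.28), 0.60 after D15 and 1.08 after D30. hsf-1 was at 0.44, 0.64, 0.76 and 1.37 after the same days. hsp-4 was farthest from L3 larvae after D15, at 77.7, 86.2 and 87.5 CPM against 420.2, 483 and 334 CPM (log2 change -2.25, standard error 0.14, edgeR adjusted p = 4.8e-06). After D30, hsp-4 and hsp-110 did not pass (edgeR adjusted p = 0.0555 and 0.314), but both depended on single libraries. Without L3 replicate 3 they were lower, at -0.60 and -0.27 on the log2 scale (edgeR adjusted p = 0.000568 and 0.0457), and without D30 24 h replicate 2 at -0.48 and -0.25 (edgeR adjusted p = 0.0375 and 0.0378). hsp-4 was also past the threshold by DESeq2 (log2 change -0.42, adjusted p = 0.0264), with RLE size factors (edgeR adjusted p = 0.0475), with no filter on low counts (edgeR adjusted p = 0.0403) and in a fit of all 54 libraries (-0.37, edgeR adjusted p = 0.00158). hsp-1 did not pass after D30 either. It was higher than in L3 larvae in a fit of all 54 libraries (0.18, edgeR adjusted p = 0.0117) and with a block on replicate number (0.15, edgeR adjusted p = 0.047). The same held without D30 24 h replicate 1 or 3 (0.29 and 0.23, edgeR adjusted p = 0.0143 and 0.0417). The call of dnj-13 after D4 (log2 change -0.19, edgeR adjusted p = 0.0472) was lost when any 1 of the 3 D4 libraries or of 2 L3 libraries was left out, and by DESeq2 (adjusted p = 0.0948).

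UV was set against no UV at 5 times to ask whether damage done on dauer day 1 shows in the chaperone genes during diapause or after exit. In D4 dauers at 0 h, 5 members were higher after UV and 0 lower, where 18.1% of all genes tested were higher and 14.4% lower. On D1 at 6 h 1 was higher and 2 lower (14.4% and 13.4%), and on D1 at 24 h 1 was higher and 1 lower (5.54% and 6.13%). On D4 at 6 h and 24 h no member passed edgeR's test in either direction (0.936% and 0.441% of all genes tested at 6 h, 0.126% and 0.00838% at 24 h). None of the 10 had an unadjusted p under 0.05 at 6 h and 2 had one at 24 h, and DESeq2 called 0 at both times.

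The 5 genes that were higher in irradiated than in unirradiated D4 dauers were the BiP pair and 3 of the cytosolic Hsp70 machine. For reference, D1 dauers had mean levels of 149 CPM for hsp-4, 899 for hsp-3, 117 for dnj-13, 320 for hsp-110 and 1003.9 for hsp-1. The irradiated D4 dauers were not tested against D1 dauers. hsp-4 had 182, 175 and 149.8 CPM after UV and 77.8, 69.2 and 70.7 CPM without it (log2 change 1.30, standard error 0.1, edgeR adjusted p = 5.98e-07). dnj-13 had 163, 167 and 147 CPM after UV and 76.6, 76.7 and 73.1 CPM without it (log2 change 1.16, standard error 0.089, edgeR adjusted p = 5.98e-07). hsp-110 had 393, 433 and 381 CPM after UV and 237, 233 and 223 CPM without it (log2 change 0.88, standard error 0.076, edgeR adjusted p = 1.8e-06). In all of these the 3 irradiated libraries lay above the 3 others. hsp-3 had 974, 891 and 1065 CPM after UV and 751, 739.9 and 695 CPM without it (log2 change 0.50, standard error 0.07, edgeR adjusted p = 0.000122), and hsp-1 1651, 1854 and 1804 CPM after UV and 1559, 1365 and 1355 CPM without it (log2 change 0.39, standard error 0.068, edgeR adjusted p = 0.000697). The mitochondrial genes did not pass, with log2 changes of -0.09 for hsp-6 and 0.18 for hsp-60, nor did sti-1 (-0.08), hsf-1 (-0.29) and hsp-70 (0.24). The irradiated libraries of hsp-6, at 640, 711 and 646 CPM, nevertheless all lay below those without UV, at 800.0, 735 and 712 CPM. hsp-70 passed with D4 0 h UV replicate 1 left out (log2 change 0.35, edgeR adjusted p = 0.0165).

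Several other measures moved with this comparison, and their part in it was not tested. The irradiated D4 libraries were the shallowest of the series, at 670302 to 856794 counts against 4069749 to 5978390 without UV. The summed level of the 6 dauer markers was 1304 to 1725 CPM after UV and 769.9 to 826 CPM without it, and that of the 6 larval growth and molting markers 14.5 to 80.2 and 5.47 to 12.2 CPM. The 6 yolk genes, which adults express, summed to 0 to 4.83 CPM after UV and 507 to 2003 CPM without it, with 3 of the 6 at 0 in every irradiated library, and the 10 sperm markers to 1.03 to 2.58 CPM and 9.75 to 29.3 CPM. The inducible heat shock genes summed to 1584 to 1846 CPM after UV and 514 to 579 CPM without it, and F44E5.4 stood at 804, 800.2 and 729.8 CPM and 122, 74.7 and 94.7 CPM. Among the 19 genes of endoplasmic reticulum folding, 10 were higher and 0 lower after UV (median log2 change 0.24), of 14 TRiC and prefoldin genes 0 were higher and 3 lower, and of 15 mitochondrial folding genes 1 and 2.

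**Figure D5:**
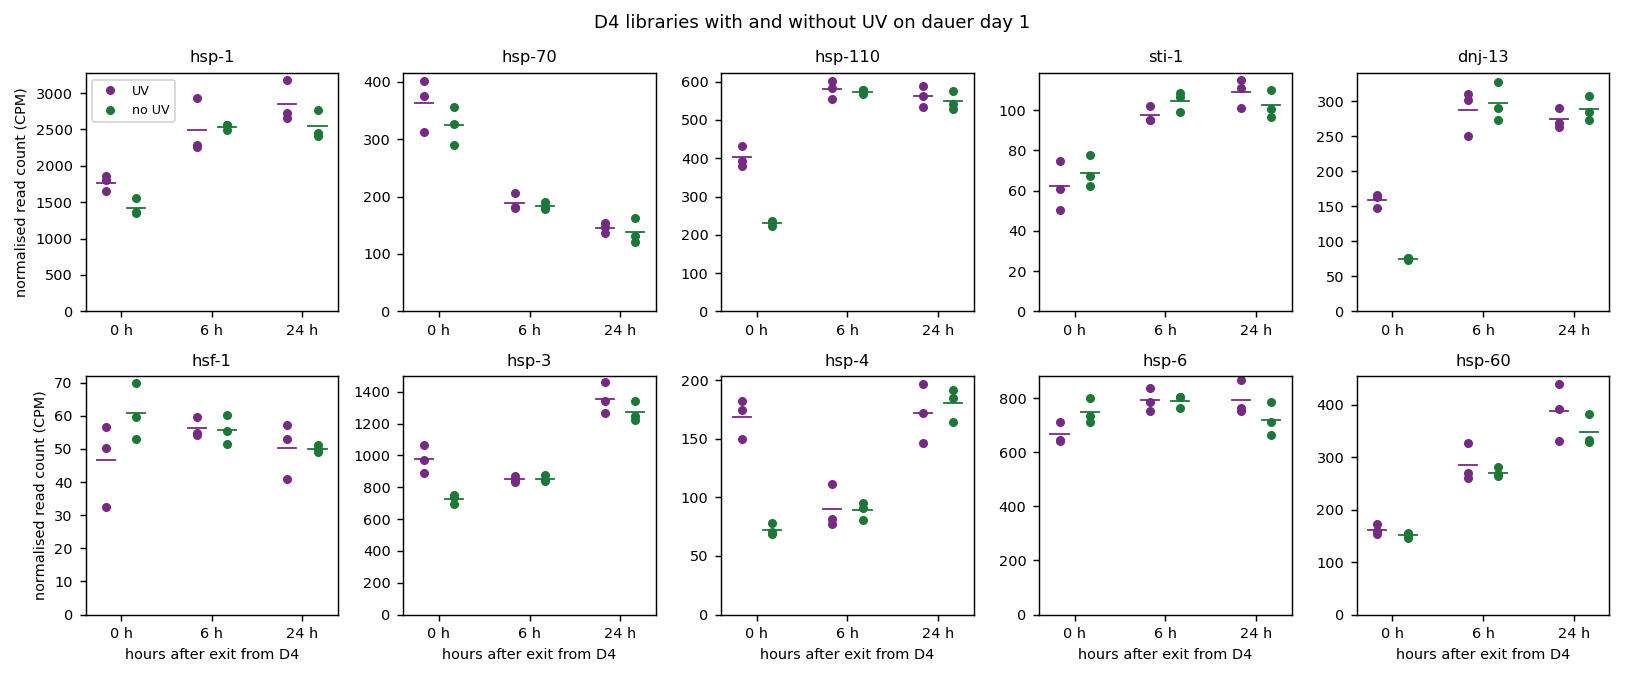
Normalised read counts (CPM, vertical axes from 0) of the 10 members in the 18 D4 libraries with UV (purple, left of each pair) and without UV (green), by hours after exit. Points are libraries and bars are means of 3, and the irradiated libraries lie above the others at 0 h for hsp-1, hsp-110, dnj-13, hsp-3 and hsp-4 and among them at 6 h.

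At 6 h after exit from D4 the same genes had like levels with and without UV. dnj-13 stood at 310.2, 302 and 249.8 CPM after UV and 290.0, 274 and 327 CPM without it, and hsp-4 at 77.4, 81.7 and 111 CPM and 95.6, 90.9 and 80.5 CPM, with overlapping libraries. The test of whether the UV effect differed among 0, 6 and 24 h on D4 was passed by 4 of 10 members, dnj-13, hsp-110, hsp-3 and hsp-4, where 22.8% of all genes tested passed. hsp-1 passed it in a fit of all 54 libraries and without D4 6 h UV replicate 3 (edgeR adjusted p = 0.0117 and 0.00257). On D1 the differences were small. hsp-110 had 504, 489 and 475 CPM at 6 h after UV and 401, 423 and 396 CPM without it (log2 change 0.27, standard error 0.042, edgeR adjusted p = 0.000697). dnj-13 and hsp-3 were lower after UV at 6 h (log2 changes -0.17 and -0.14, edgeR adjusted p = 0.0253 and 0.0242), and both calls were lost when any 1 of the 3 D1 6 h libraries without UV was left out, that of dnj-13 also without UV replicate 3 and that of hsp-3 also without UV replicate 1. At 24 h hsp-60 was lower after UV, at 312, 305 and 302 CPM against 354, 353 and 337 CPM (log2 change -0.21, standard error 0.04, edgeR adjusted p = 0.00535). hsp-70 was higher, at 541, 581 and 553 CPM against 444, 499 and 509 CPM (log2 change 0.18, standard error 0.054, edgeR adjusted p = 0.0481), and that call was lost when any library but D1 24 h replicate 3 was left out.

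Over the 18 conditions the mean level spanned 13.3-fold for hsp-70, 9.58-fold for hsp-6, 8.88-fold for hsp-60 and 6.57-fold for hsp-4. It spanned 4.79-fold for dnj-13, 4.38-fold for hsp-1, 3.77-fold for hsp-110, 3.76-fold for hsp-3, 2.77-fold for sti-1 and 2.71-fold for hsf-1. 4 of them, hsp-1, hsp-6, hsp-70 and hsf-1, were highest in D30 dauers, and the other 6 in L3 larvae. hsp-60 in L3 larvae, at 983 ± 83.4 CPM, was clear of the next condition, D15 at 24 h with 481 ± 18.97 CPM, and so were sti-1, dnj-13 and hsp-3 in L3 larvae. hsp-110 and hsp-4 in L3 larvae overlapped the condition that followed, D30 at 24 h for hsp-110 and D30 at 0 h for hsp-4. hsp-6 was ordered by dauer day, with the 3 D30 conditions first and the 3 D15 conditions next, and D30 at 0, 6 and 24 h did not overlap each other. For sti-1 no neighbours in the order of conditions were clear of each other below L3 larvae, and for hsf-1 and hsp-3 few were. Per kilobase of transcript, hsp-1 was the most abundant member in D30 dauers, at 2123 CPM per kb, followed by hsp-6 at 889 and hsp-3 at 433, and hsf-1 the least, at 38.5. In L3 larvae hsp-1 stood at 1761, hsp-3 at 910.5, hsp-60 at 464 and hsf-1 at 14.2 CPM per kb.

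Across the 18 condition means, which share libraries within a condition and the scaling of all libraries, the log2 levels of hsp-1 and hsp-6 had a Pearson correlation of 0.85, those of hsp-3 and hsp-4 0.79, and those of sti-1 and hsp-3 0.82. The 2 mitochondrial genes had 0.00, hsp-70 and hsp-60 -0.62, and hsf-1 and hsp-60 -0.53. As a description, the genes of highest correlation with each member among the 9093 with a mean of at least 10 CPM are given next. They were cct-3 (0.98), cct-7 (0.98) and R02F2.1 (0.96) for hsp-6, Y23H5B.5 (0.98), spg-7 (0.98) and phb-2 (0.97) for hsp-60 and cct-1 (0.94), icd-1 (0.93) and cct-2 (0.92) for hsp-1. The first and second of hsp-6 are TRiC subunit genes, and the spg-7 and phb-2 genes near hsp-60 encode a mitochondrial protease and a prohibitin. For hsf-1 they were let-504 (0.97), aak-1 (0.97) and iff-1 (0.97), for hsp-3 arx-2 (0.92), C14B9.2 (0.92) and imp-2 (0.92), and for hsp-4 catp-8 (0.94), ced-10 (0.89) and gyg-1 (0.89). For the remaining cytosolic members the highest were W08A12.2 for hsp-70 (0.88), txdc-9 for hsp-110 (0.89), cdc-48.2 for sti-1 (0.92) and ugt-60 for dnj-13 (0.89).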

How the data were processed

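RNA of whole worms was measured in 54 libraries, 3 for each of 18 groups taken from the labels. The estimated counts per gene were deposited by the authors, who used fastp for trimming (version not given), Salmon for quantification on the WBPS15 transcriptome, the genome serving as decoy, and tximport for gene totals. They were rounded to whole numbers. A gene was tested in a comparison when 3 of its libraries or more held 10 counts or more, by edgeR's quasi-likelihood test (edgeR 4.0.16, R 4.3.3) on TMM scaling, with Benjamini-Hochberg adjustment over all genes tested and a threshold of 0.05. Comparisons were fitted on their own libraries, with slopes on dauer day or exit hour and interactions as stated. CPM used TMM-scaled library sizes of all 54 libraries, and CPM per kilobase the longest annotated transcript. Alternatives were DESeq2 1.42.0, RLE size factors, no filter, a block on replicate number, a joint fit of all libraries, other codings of time, and each library left out. The code was tested on simulated data. Members and lists were chosen with earlier results of these data known. By rule, the text could name the 10 members in every comparison, daf-21, xbp-1 and atfs-1, from each list up to 3 genes of smallest p in the direction of most calls and 1 in the other, and the 3 genes of highest correlation with each member. F44E5.4, F44E5.5, the HSF-1 regulators, stip-1 and the markers col-2, col-40 and hsp-12.6 were named outside that rule, after their values were seen. Coordinates are of WBcel235, and gene models may differ from those of the authors.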

Additional observations from a re-analysis of the deposited data

Results flagged for a closer look

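The exit slopes of 7 members differed among D1, D4, D15 and D30 by edgeR's test of the interaction of day and hour. Adjustment was over all genes tested. The same test called 64.2% of all genes tested, a share close to that of the members, so the number of calls does not set the members apart. The range from the lowest to the highest slope over 24 h was 2.73 on the log2 scale for hsp-70 (edgeR adjusted p = 0.000114), 1.64 for hsp-6 (edgeR adjusted p = 2.33e-17), 1.5 for hsp-4 (edgeR adjusted p = 8.02e-06) and 1.18 for hsp-1 (edgeR adjusted p = 4.21e-06). It was 1.03 for hsp-110 (edgeR adjusted p = 0.0323), 0.90 for hsp-3 (edgeR adjusted p = 1.67e-05) and 0.64 for sti-1 (edgeR adjusted p = 0.0104). Each slope rests on 9 libraries, and exit from D1 gave the highest slope for hsp-70, hsp-6, hsp-1, hsp-110 and sti-1. The call of hsp-110 was lost without D1 0 h replicate 2, D1 24 h replicate 2 or 3, D30 0 h replicate 3, or D30 24 h replicate 1 or 3, with edgeR adjusted p-values between 0.0508 and 0.0856.

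The UV effect on D4 differed among 0, 6 and 24 h for 4 members. The effects spanned 1.27 on the log2 scale for hsp-4 (edgeR adjusted p = 1.95e-05), 1.14 for dnj-13 (edgeR adjusted p = 1.21e-06), 0.78 for hsp-110 (edgeR adjusted p = 1.29e-06) and 0.43 for hsp-3 (edgeR adjusted p = 0.00351). For all of these the irradiated libraries were higher in 3 of 3 at 0 h. hsp-1 did not pass as reported, but it did in a fit of all 54 libraries (edgeR adjusted p = 0.0117). It also passed without D4 6 h UV replicate 3 (edgeR adjusted p = 0.00257).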

How the results depend on the processing

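Of 1280 member values under settings other than leaving out a library, 1214 kept their side of the threshold, 17 lost the call, 45 gained one and 4 reversed. Of 2040 values with 1 library left out, 1954 kept their side, 52 lost the call, 34 gained one and 0 reversed. Direction was compared only for values called in either fit, and not for the interaction tests or for day as a category. The reversed values were the aging slopes without D30, at -0.32 for hsp-110, -0.22 for sti-1, -0.86 for hsp-3 and -2.11 for hsp-4, where the slope was fitted on D1, D4 and D15 alone and is still given per 29 days. Exit from D4 called 7 members by DESeq2, 9 with all 54 libraries in 1 fit and 9 at 24 h against 0 h alone, in place of 4. Exit from D15 called 7 in the joint fit and 8 at 24 h against 0 h alone, in place of 4, and exit from D30 called 5 and 6, in place of 3. The shares of all genes tested under these settings of the exit slopes are not given here. With 1 library left out, UV on D1 called 1 to 3 members at 6 h and 1 to 3 at 24 h. The joint fit called 0 at D1 24 h after UV. Replicate numbers did not pair the libraries, since correlations of deviations between same-numbered libraries ran from -0.122 to 0.113, and the replicate block called 1 member at D1 24 h after UV in place of 2. Called members in aging numbered 6 with the slope on log2 of the day, in place of 9. For these UV and aging counts too, the shares of all genes tested are not given here. Over all genes, day as a category called 12959 in aging in place of 7869, and DESeq2 called 1010 at D1 24 h after UV in place of 1530. UV on D4 at 6 h called 353 with no filter, 371 in the joint fit and 45 to 312 with 1 library left out, in place of 150. At 24 h it called 66, 49 and 6 to 27, and 32 by DESeq2, in place of 16. The planned search of promoters for a motif was not run. The 670302 to 856794 counts of the irradiated D4 dauers limit what could be detected there.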
